A study of Saccharomyces cerevisiae with 4 samples.

Results

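The 33 genes of glycolysis and alcohol fermentation in budding yeast were followed through immunoprecipitates of Whi3, an RNA-binding protein that restrains cell cycle entry and binds mRNAs such as that of the G1 cyclin CLN3. The genes were taken by name from the array annotation, as the coding-region probes of the enzymes leading from glucose to ethanol, their isozymes, the 2 kinases that make fructose 2,6-bisphosphate, and the activators GCR1 and GCR2. They are 33 of 5738 gene probes, and all 33 matched a RefSeq entry by systematic name. A further 12 probes, of 480 on the arrays, lie in the 3′ UTRs of members. The strains were in the W303 background, grown in rich glucose medium to log phase. In 1 strain Whi3 had a TAP tag (Whi3-TAP), and in the other the tagged Whi3 lacked the RNA recognition motif (Whi3-dRRM-TAP). On each of 4 arrays, cDNA from an immunoprecipitate (Cy3) was hybridised together with cDNA from that strain's total RNA (Cy5). Each strain had 2 arrays, 1 from each of 2 independent experiments. Both strains carry the tag, so a difference between them bears on the RNA recognition motif, and no array of an untagged strain was analysed here.

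Glycolysis turns glucose into pyruvate, and in yeast growing on glucose most pyruvate is decarboxylated to acetaldehyde and reduced to ethanol, which regenerates the NAD+ that glycolysis needs. Many of the steps are run by duplicated genes, of which 1 copy is usually abundant on glucose while the others are silenced by glucose or serve a side reaction. The abundant copies give some of the most plentiful mRNAs of a fermenting cell. The comparison asks whether these mRNAs came down with Whi3 through its RNA recognition motif.

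The measure for 1 array was the log2 ratio of immunoprecipitate to total RNA, which is 0 for an RNA as common in the precipitate as in the bulk of RNAs of like brightness. The net log ratio was that ratio with Whi3-TAP minus that with Whi3-dRRM-TAP in the same experiment. A positive net value means more of the RNA in the Whi3-TAP precipitate. Spots with a negative scanner flag were left out, and 136 and 146 of the 164 spots of members remained on the Whi3-TAP arrays and 108 and 131 on the Whi3-dRRM-TAP arrays. Of the 33 genes, 27 had values on all 4 arrays, as did 4295 genes in all. PFK26, PFK27, PYK2 and ADH4 had values on 3 arrays and lacked Whi3-dRRM-TAP array 1, whereas GPM2 and GCR2 had a value on a single Whi3-TAP array. Over the 4295 genes, the immunoprecipitate was above background for 89.0% and 99.3% on the Whi3-TAP arrays and for 16.6% and 65.5% on the Whi3-dRRM-TAP arrays. For the 27 members it was above background for 26 and 27 genes on the Whi3-TAP arrays and for 13 and 23 on the Whi3-dRRM-TAP arrays. For orientation, CLN3 had a net log ratio of 1.48 ± 0.14 (SD, n = 2 experiments; limma adjusted p = 0.0686), and WHI3 itself had 0.20 ± 0.02. Precision was limited by having 2 arrays per strain.

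Glycolytic and fermentation mRNAs as a group were scarcer in both immunoprecipitates than in total RNA, with similar medians for the proteins. The median ratio of the 27 members was -0.93 with Whi3-TAP (-0.96 and -0.84 on the arrays) and -0.85 with Whi3-dRRM-TAP (-1.04 and -0.67 on the arrays). The same medians over all 4295 genes were 0.00 with Whi3-TAP, against 0.06 with Whi3-dRRM-TAP. With Whi3-TAP, 16 of the 27 (59.3%) were lower in the precipitate at a limma adjusted p under 0.05, against a background of 8.94% of all genes, and none was higher (10.4% of all genes). With Whi3-dRRM-TAP, 15 (55.6%) were lower, against 9.22% of all genes, and 1, ADH7, was higher (13.6% of all genes). All 15 were also among the 16, a result that 4.1% of all genes shared. The exception was HXK2, with -0.58 ± 0.32 and an adjusted p of 0.0747 in limma for Whi3-dRRM-TAP. The precipitate was not above background on Whi3-dRRM-TAP array 1 for 9 of the 15, namely HXK1, GLK1, PGI1, PFK2, TPI1, ENO1, PDC5, ADH1 and ADH3, so their ratios on that array are less certain. On all 4 arrays 22 members (81.5%) lay below 0, against 20.2% of all genes, and 14 lay at or below -0.5, against 4.47%. Cy3 always carried the immunoprecipitate, so a dye effect and precipitation cannot be told apart in these ratios, whereas a dye effect common to the arrays cancels in the net log ratio.

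**Figure D1:**
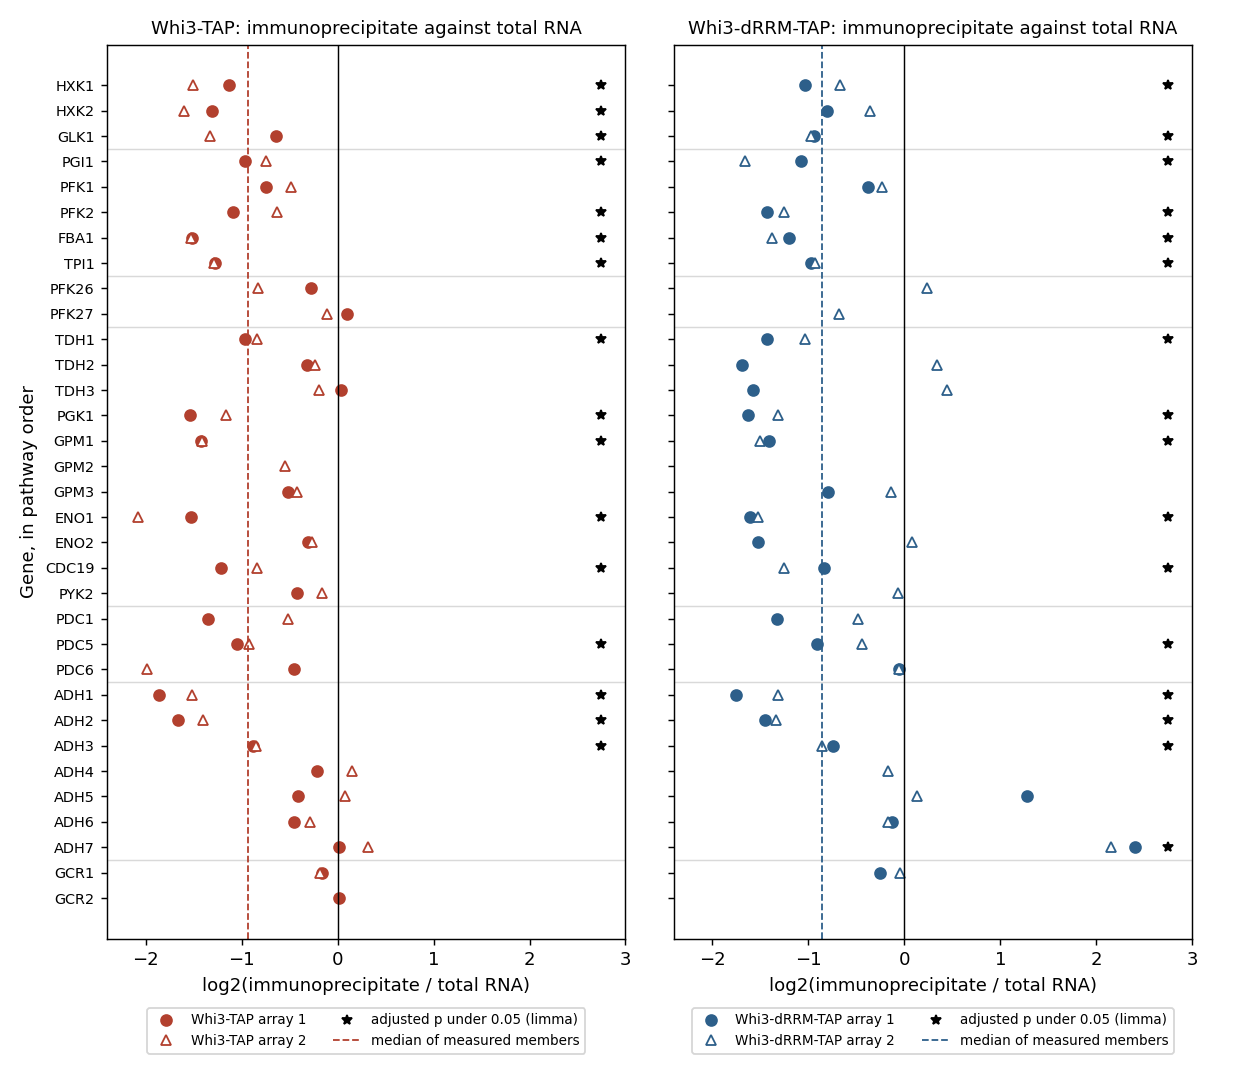
Log2 ratio of immunoprecipitate to total RNA for each gene (rows, in pathway order) on the Whi3-TAP arrays (left) and the Whi3-dRRM-TAP arrays (right). Circles and triangles are arrays 1 and 2, stars mark an adjusted p under 0.05 in limma, and the dashed line is the median of the 27 measured genes. Most genes lie left of 0 in both panels, while ADH7 lies far to the right with Whi3-dRRM-TAP.

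Members were brighter than most genes, and bright genes were more often called lower in each precipitate. How often bright genes were called higher was not counted. The part of brightness was not tested beyond the counts given here. By mean intensity over the arrays, the members had a median percentile of 91.3, and 14 of the 27 (51.9%) were among the brightest 10% of genes. Of the 430 genes in that brightest 10%, 21.2% were lower in the Whi3-TAP precipitate and 21.6% in the Whi3-dRRM-TAP precipitate. The 14 members there counted 8 (57.1%) with Whi3-TAP, against 8 with Whi3-dRRM-TAP, near the shares of all 27 members (59.3% and 55.6%). On all 4 arrays 10 of these 14 (71.4%) lay below 0, against 34.7% of the brightest genes and 81.5% of all 27 members. The actin gene ACT1 had -0.77 ± 0.38 with Whi3-TAP, against -0.86 ± 0.44 with Whi3-dRRM-TAP. The counts rested on both Whi3-TAP arrays. Once either was left out, calls with Whi3-TAP were lost over all genes, not in the members alone. Calls with Whi3-dRRM-TAP also became fewer, over members and over all genes, and the fit shares the spread of both strains.

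The net log ratio gave no called gene among the 27 and none among all 4295 (0% of genes in either direction; limma with the experiment as a block, smallest adjusted p 0.0678). At an unadjusted p under 0.05, 0 members were higher (12.8% of all genes) and 3 were lower, HXK2, PDC6 and ADH7 (16.5% of all genes). The median net log ratio of members was -0.07, with -0.09 and -0.20 in experiments 1 and 2, and that of all genes was -0.09. The members' median turned positive, 0.20, when arrays were centred on their medians in place of loess, against -0.21 for all genes. The values ran from -2.11 for ADH7 to 0.51 for PGI1, and 22 of the 27 lay within 0.5 of 0. By sign, 4 members were positive in both experiments (32.4% of all genes), 13 were negative in both (41.2%) and 10 had opposite signs. The methods' rule takes RNAs a set number of SDs above the mean of all genes. Applied to the values here it gave a limit of 1.05, and no member was above (5.01% of all genes). A lower limit at the same number of SDs, added here, was -1.21, and ADH7 alone was below (5.05%). Without the experiment block, limma called ADH7 lower (1.42% of all genes).

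**Figure D2:**
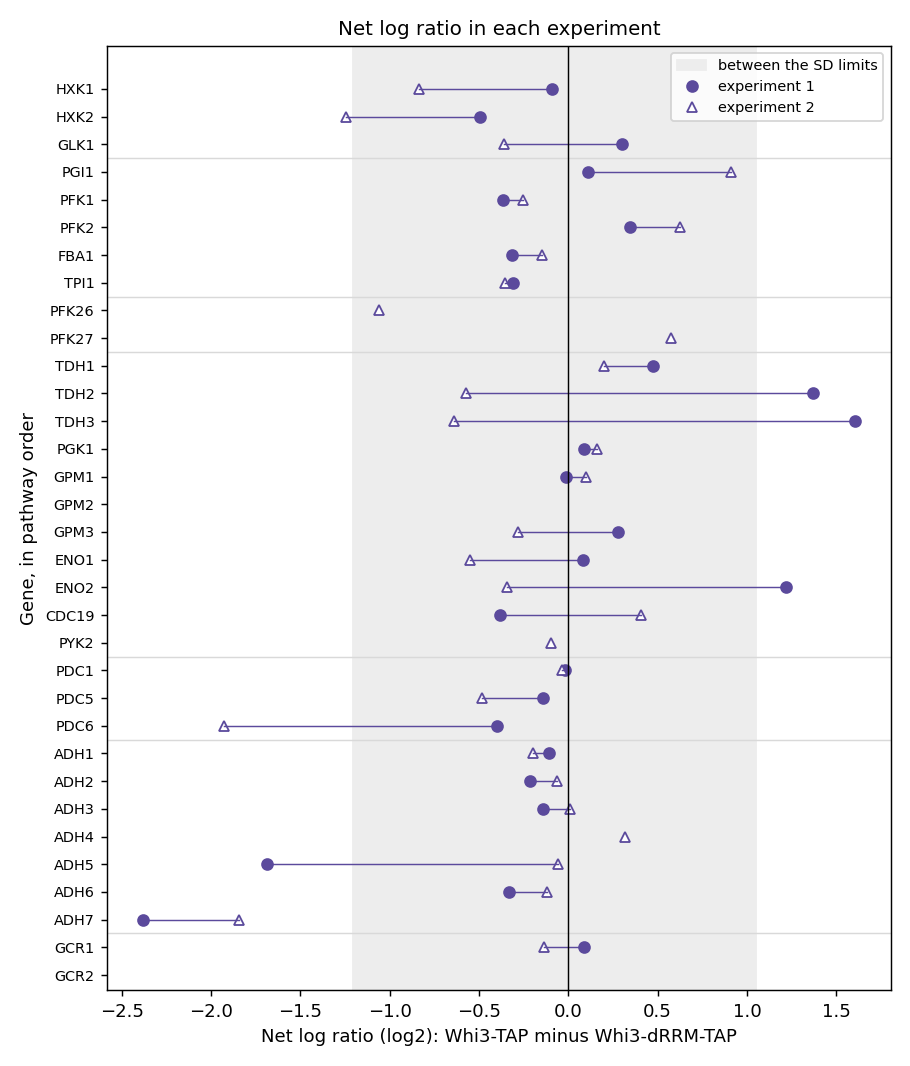
Net log ratio (log2, Whi3-TAP minus Whi3-dRRM-TAP) of each gene in experiment 1 (circles) and experiment 2 (triangles), joined by a line. The Whi3-dRRM-TAP precipitates of GPM3, ADH5 and GCR1 were above background on neither array. The shaded band lies between the SD limits of 1.05 and -1.21. ADH7 is the only gene with both values left of the band, and TDH2, TDH3 and ENO2 have 1 value on each side of 0.

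Glucose enters the pathway through the hexokinases HXK1 and HXK2 and the glucokinase GLK1. Limma called all 3 mRNAs lower in the Whi3-TAP precipitate than in total RNA, against 8.94% of all genes. HXK2 (YGL253W), the main hexokinase on glucose, which also acts in glucose repression, had ratios of -1.30 and -1.60 with Whi3-TAP, against -0.81 and -0.36 with Whi3-dRRM-TAP. Both Whi3-TAP arrays lay below both Whi3-dRRM-TAP arrays, as they did for 10 of the 27 members and 34.2% of all genes, with the reverse for 3 members and 26.6% of all genes. Its net log ratio was -0.87 ± 0.53 (limma adjusted p = 0.14). On Whi3-dRRM-TAP array 1 neither channel of HXK2 was above background, so its values in experiment 1 are less certain. HXK2 was also the member with the highest difference in total RNA, a log2 difference of 0.67 ± 0.06, Whi3-TAP minus Whi3-dRRM-TAP, whose part in the net value was not tested. HXK1, its paralog induced when glucose runs low, had -1.13 and -1.50 with Whi3-TAP, against -1.04 and -0.67 with Whi3-dRRM-TAP, a net of -0.46 ± 0.53. GLK1, which phosphorylates glucose but not fructose, was printed as 3 products and had -0.65 and -1.33 with Whi3-TAP, against -0.95 and -0.97 with Whi3-dRRM-TAP, so the strains overlapped.

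In upper glycolysis, limma called 4 of 5 mRNAs lower in the precipitate with each protein, against 8.94% (Whi3-TAP) and 9.22% (Whi3-dRRM-TAP) of all genes. The other, PFK1, lay below 0 on all 4 arrays but was not called (limma adjusted p = 0.0502 with Whi3-TAP, against 0.214 with Whi3-dRRM-TAP). Aldolase, FBA1, which splits fructose bisphosphate into triose phosphates, had -1.52 and -1.52 with Whi3-TAP, against -1.20 and -1.38 with Whi3-dRRM-TAP. Triosephosphate isomerase, TPI1, which interconverts those trioses, had -1.28 and -1.29 with Whi3-TAP, against -0.97 and -0.93 with Whi3-dRRM-TAP. Their nets of -0.23 ± 0.12 and -0.33 ± 0.03 were not called by limma and were 0.20 and 0.13 with median centring in place of loess. The isomerase gene PGI1 had -0.96 and -0.75 with Whi3-TAP, against -1.07 and -1.66 with Whi3-dRRM-TAP, which gave the highest mean net of the members, 0.51 ± 0.56 (limma adjusted p = 0.296), which came to 0.00 without background correction. PFK1 and PFK2 encode the alpha and beta subunits of phosphofructokinase, the committed step, which work in 1 complex. PFK2 had -1.09 and -0.63 with Whi3-TAP, against -1.43 and -1.26 with Whi3-dRRM-TAP, a net of 0.49 ± 0.20. That net came to 0.005 without background correction. PFK1 had -0.75 and -0.49 with Whi3-TAP, against -0.38 and -0.23 with Whi3-dRRM-TAP, a net of -0.31 ± 0.08. The partner subunits therefore had nets of opposite sign in both experiments, though with median centring both were positive (0.23 and 0.63), and neither net was called by limma (adjusted p = 0.364 for PFK1 and 0.219 for PFK2). PFK26 and PFK27 encode the kinases for fructose 2,6-bisphosphate, the activator of phosphofructokinase. They could be compared in experiment 2 only, with no replicate. The net of PFK26 was -1.06, with total RNA above background on none of its arrays, and none is given for PFK27, whose precipitate was not above background on Whi3-dRRM-TAP array 2.

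Of the 9 measured genes of lower glycolysis, limma called 5 lower in the precipitate with each protein: TDH1, PGK1, GPM1, ENO1 and CDC19. Among all genes, 8.94% were so called for Whi3-TAP, 9.22% for Whi3-dRRM-TAP and 4.1% for both proteins. Enolase 1, ENO1 (YGR254W), had ratios of -1.52 and -2.08 with Whi3-TAP, against -1.61 and -1.53 with Whi3-dRRM-TAP. Without background correction the means of ENO1 were -1.09 with Whi3-TAP, against -1.05 with Whi3-dRRM-TAP. Phosphoglycerate kinase, PGK1, the first ATP-forming step, had -1.54 and -1.16 with Whi3-TAP, against -1.62 and -1.32 with Whi3-dRRM-TAP. Phosphoglycerate mutase, GPM1, had -1.42 and -1.41 with Whi3-TAP, against -1.41 and -1.51 with Whi3-dRRM-TAP. For PGK1 and GPM1 the net log ratios were 0.12 ± 0.05 and 0.04 ± 0.08, close to 0 with little spread. CDC19, the pyruvate kinase used on glucose, had -1.21 and -0.84 with Whi3-TAP, against -0.83 and -1.25 with Whi3-dRRM-TAP. Its minor isozyme PYK2 had -0.43 and -0.16 with Whi3-TAP, and its precipitate was not above background on the remaining Whi3-dRRM-TAP array. GPM2 and GPM3, paralogs of GPM1 thought to have no mutase activity, were dim. The immunoprecipitate of GPM3 was above background on Whi3-TAP array 2 only, and GPM2 had 1 value, -0.55 with Whi3-TAP.

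TDH2 and TDH3, the main glyceraldehyde-3-phosphate dehydrogenases, and ENO2, the enolase made on glucose, had net log ratios of opposite sign in the experiments. TDH3 (YGR192C) had ratios of 0.03 and -0.19 with Whi3-TAP, against -1.57 and 0.45 with Whi3-dRRM-TAP, which gave nets of 1.60 and -0.64. TDH2 had -0.32 and -0.23 with Whi3-TAP, against -1.69 and 0.34 with Whi3-dRRM-TAP, with nets of 1.37 and -0.57. ENO2 had -0.31 and -0.26 with Whi3-TAP, against -1.53 and 0.08 with Whi3-dRRM-TAP, with nets of 1.22 and -0.34. In each case the Whi3-TAP arrays were close together and the Whi3-dRRM-TAP arrays lay on both sides of them. These were also the spots most affected by scanner saturation, where pixels reach the top of the range and a ratio is compressed. In total RNA the saturated share of TDH3 pixels was 87.0% and 87.2% on the Whi3-TAP arrays, against 71.0% and 87.8% on the Whi3-dRRM-TAP arrays. In the immunoprecipitate it was 20.0% and 84.8% with Whi3-TAP, against 0% and 46.0% with Whi3-dRRM-TAP. ENO2 had no saturated precipitate on array 1 of either strain. Over the members, 5 (18.5%) had 50% or more saturated pixels in total RNA on at least 1 array (TDH1, TDH2, TDH3, ENO2 and PDC1), against 0.629% of all genes. TDH1 and PDC1 had nets of 0.34 ± 0.19 and -0.03 ± 0.01, with little gap between experiments. The part of saturation in these values was not tested beyond leaving such spots out, which removed TDH2, TDH3 and ENO2 and put the members' median net at -0.24.

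**Figure D3:**
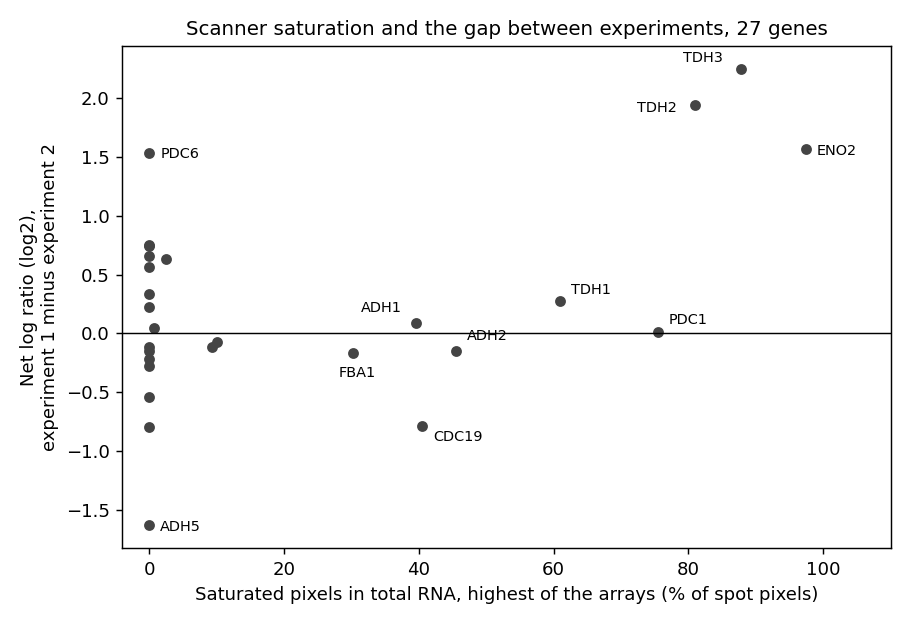
Gap between the experiments (net log ratio of experiment 1 minus experiment 2, log2) against the highest share of saturated pixels in total RNA over the arrays (percent), for the 27 genes with values on all 4 arrays. TDH2, TDH3 and ENO2 stand apart at the upper right, while TDH1 and PDC1 lie near 0 and PDC6 has a wide gap without saturation.

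The pyruvate decarboxylases take pyruvate to acetaldehyde, the first step of fermentation. PDC1, the main isozyme, had -1.35 and -0.52 with Whi3-TAP, against -1.33 and -0.49 with Whi3-dRRM-TAP. Its arrays paired by experiment rather than by protein, and neither ratio passed the test (limma adjusted p = 0.075 with Whi3-TAP, against 0.0733 with Whi3-dRRM-TAP). On array 2 its total RNA had 57.0% saturated pixels with Whi3-TAP, against 75.5% with Whi3-dRRM-TAP. With saturated spots left out, limma called PDC1 lower with both proteins. It also did so under alternatives that kept those spots: no background correction, median centring, print-tip loess and flagged spots kept. PDC5, the isozyme that rises when PDC1 is lost, was lower in both precipitates, with -1.05 and -0.92 with Whi3-TAP, against -0.91 and -0.44 with Whi3-dRRM-TAP. PDC6, a minor isozyme, had -0.46 and -1.99 with Whi3-TAP, against -0.06 and -0.06 with Whi3-dRRM-TAP. Its net of -1.16 ± 1.08 rested on 1 spot on Whi3-dRRM-TAP array 1 and a precipitate not above background on array 2 (limma adjusted p = 0.17), and both experiments were negative.

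Among the alcohol dehydrogenases, ADH1, ADH2 and ADH3 were lower in both precipitates than in total RNA, and ADH5, ADH6 and ADH7 were called lower in neither. ADH1 (YOL086C), the enzyme that makes ethanol, had -1.86 and -1.51 with Whi3-TAP, against -1.75 and -1.32 with Whi3-dRRM-TAP. ADH2, which is repressed by glucose and oxidises ethanol, had -1.66 and -1.41 with Whi3-TAP, against -1.45 and -1.34 with Whi3-dRRM-TAP. The mitochondrial ADH3 had -0.88 and -0.86 with Whi3-TAP, against -0.74 and -0.86 with Whi3-dRRM-TAP. Their nets lay between -0.15 and -0.07. ADH6, which reduces aldehydes with NADPH, had -0.46 and -0.29 with Whi3-TAP, against -0.12 and -0.17 with Whi3-dRRM-TAP. ADH5 (YBR145W) had -0.41 and 0.08 with Whi3-TAP, and its precipitate was above background on neither Whi3-dRRM-TAP array. The precipitates of GPM3 and GCR1 were also above background on neither, so 3 of the 27 had only a bound in Whi3-dRRM-TAP (33.4% of all genes), and no fold or net is described for them. The annotation lists ADH5 also as another name of SFA1, a different gene that was not counted as a member (net 0.30 ± 0.48). ADH4 had -0.21 and 0.15 with Whi3-TAP, and its precipitate was not above background on the remaining Whi3-dRRM-TAP array.

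ADH7 (YCR105W), a relative of ADH6 that reduces cinnamaldehydes and other aldehydes with NADPH, was the member that differed most between the proteins, in favour of Whi3-dRRM-TAP. Its ratios were 0.02 and 0.31 with Whi3-TAP, against 2.40 and 2.16 with Whi3-dRRM-TAP. The mean was 0.17 ± 0.21 with Whi3-TAP, against 2.28 ± 0.17 with Whi3-dRRM-TAP (SD, n = 2 each; limma adjusted p against 0 of 0.521 and 0.00593). The strains did not overlap, and the net of -2.11 ± 0.38 ranked 4291 of 4295, with a limma adjusted p of 0.0678. ADH7 was printed as 3 separate PCR products of 4 spots each, and the signal came from product 1 alone. Its mean intensity above background in the immunoprecipitate was 2632 and 17818 on the Whi3-TAP arrays and 4532 and 27364 on the Whi3-dRRM-TAP arrays. Product 2 gave 116 and 473 on the Whi3-TAP arrays and 196 and 270 on the Whi3-dRRM-TAP arrays. Product 3 gave 63.8 and 39.5 with Whi3-TAP and 189 and 150 with Whi3-dRRM-TAP. All spots of products 2 and 3 were left out by their flags, apart from 3 spots of product 2 on Whi3-TAP array 2. From product 1 alone the nets were -2.38 and -1.99. With flagged spots kept, which averages all 3 products, the net of ADH7 was -0.63, so its size depends on which product measures the gene, and what RNA product 1 bound was not tested.

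**Figure D4:**
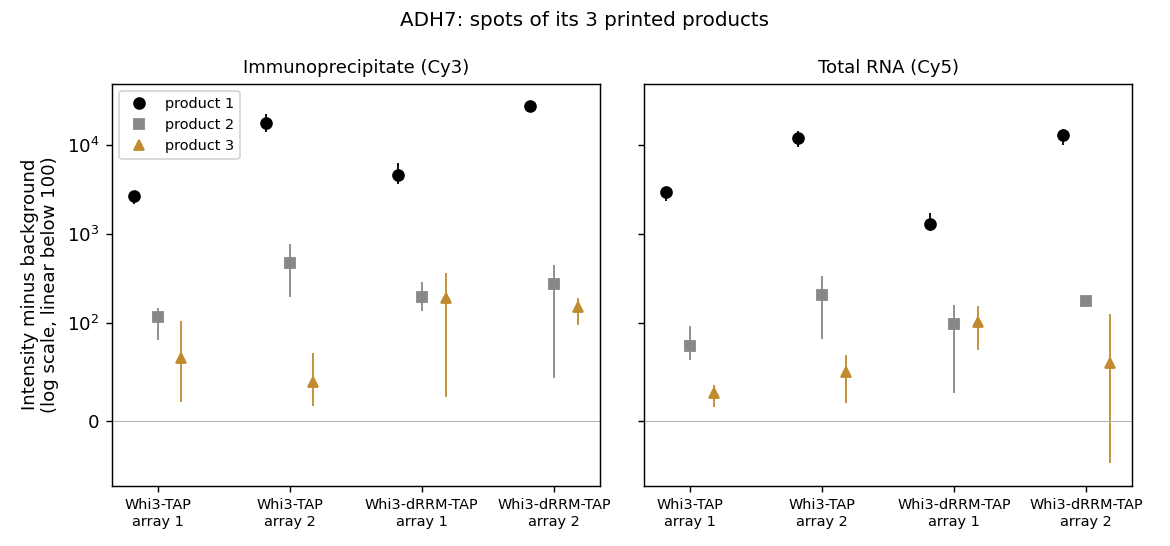
Intensity minus local background of the ADH7 spots on each array, in the immunoprecipitate (left) and in total RNA (right), by printed product. Points are means of 4 spots and lines run from the lowest to the highest spot, on a log scale that is linear below 100. Product 1 is bright in both channels of every array, and products 2 and 3 are not.

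The other members printed more than once were PFK1, GLK1 and GCR1. The 2 PFK1 products with signal gave nets of -0.27 and -0.35. The GLK1 products gave -0.11, 0.27 and -0.49. GCR1, the activator of glycolytic genes, had -0.17 and -0.19 with Whi3-TAP, which limma did not call. Its partner GCR2 had a single value, 0.02 on Whi3-TAP array 1.

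Coding regions of the isozymes are close in sequence, so a spotted product of TDH1, TDH2 or TDH3, of ENO1 or ENO2, of PDC1 or PDC5, or of ADH1 or ADH2 may bind the mRNA of its paralogs, and values of single isozymes are uncertain. Probes in 3′ UTRs, which differ more between paralogs, were weak. Of the 12, 3 had values on all 4 arrays, for TDH2, ENO2 and ADH1, each with 1 spot on Whi3-dRRM-TAP array 1, and limma called none of them (131 such probes tested, 6.11% higher and 2.29% lower). On that array all 3 were above background in neither channel, so nets of experiment 1 are not described. In experiment 2 the 3′ UTR probe of TDH2 had a net of -0.31, with no saturated pixels, and its coding probe had -0.57. That of ENO2 had -1.57, and its coding probe had -0.34. The precipitate of the ADH1 3′ UTR probe was above background on neither Whi3-dRRM-TAP array. For ADH2 the coding probe of total RNA was above background on every array, with up to 45.5% saturated pixels, whereas its 3′ UTR probe was above background in total RNA on none of its 3 arrays. The TDH3 3′ UTR probe had a net of -1.47 in experiment 2 alone, and its coding probe had -0.64. The precipitates of the 3′ UTR probes of TDH1, ENO1, ADH2 and ADH3 were not above background on Whi3-dRRM-TAP array 2. The PDC1 probe had no spot left, and those of PDC5, PDC6 and ADH5 could not be compared.

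**Figure D5:**
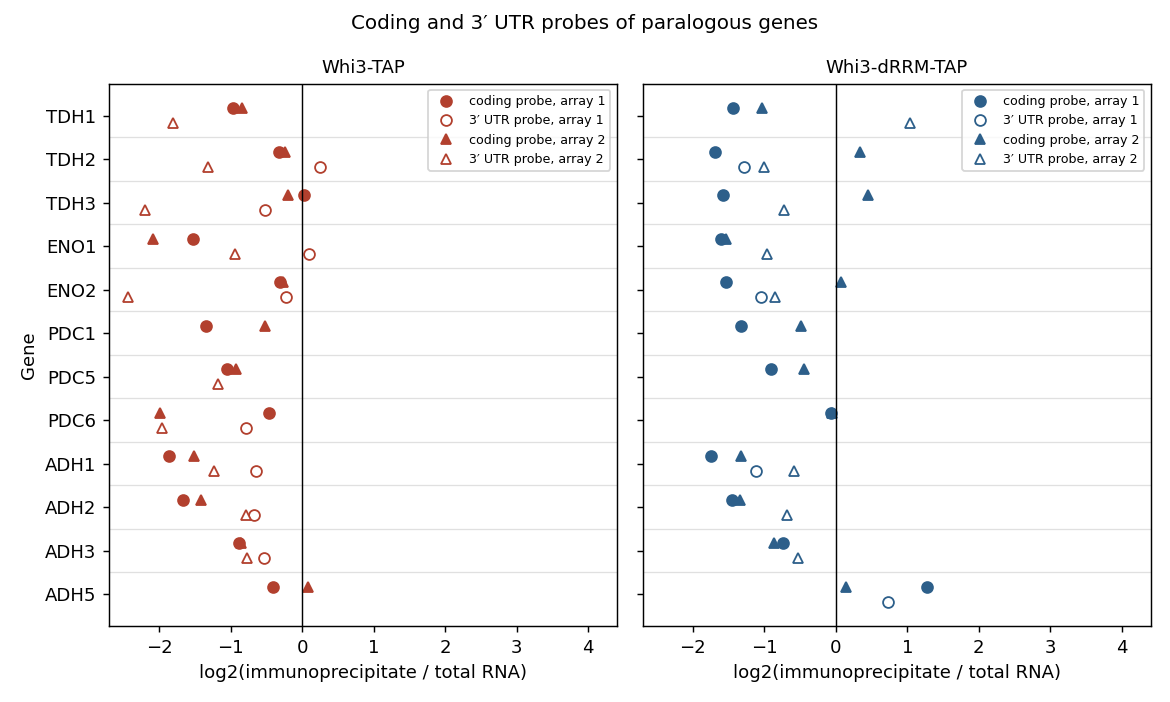
Log2 ratio of immunoprecipitate to total RNA of the coding probe (filled) and the 3′ UTR probe (open) of 12 genes with paralogs, on the Whi3-TAP arrays (left) and the Whi3-dRRM-TAP arrays (right). Circles and triangles are arrays 1 and 2, and missing symbols are probes with no spot left. The 3′ UTR probes of the first Whi3-dRRM-TAP array are mostly missing.

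Total RNA, the reference of each ratio, was compared between strains in the Cy5 channel. No member and no other gene was called by limma (0% of 4295 in either direction). At an unadjusted p under 0.05, 3 members were higher with Whi3-TAP, HXK2, PFK1 and ADH6 (7.47% of all genes), and 1, ENO1, was lower (4.82%). The log2 differences ran from -1.46 ± 0.62 for ENO1 to 0.67 ± 0.06 for HXK2, with a median of 0.14 over members and 0.04 over all genes. Total RNA of HXK2 was not above background on Whi3-dRRM-TAP array 1. ENO1 was measured from 2 or 3 spots per array. With 1 array left out, the difference of ENO1 ran from -2.89 (without Whi3-dRRM-TAP array 1) to -0.17 (without Whi3-dRRM-TAP array 2), and it was -0.21 with spots kept that the scan reading had marked as poor. That of HXK2 ran from 0.13 to 1.18 without the same arrays, and was 1.12 and 0.20 without Whi3-TAP arrays 1 and 2.

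Pathways that branch off glycolysis were counted beside it. Of 45 listed genes of gluconeogenesis, glycerol, acetate, pyruvate dehydrogenase, storage carbohydrate and the pentose phosphate pathway, with further regulators, 38 were measured. With Whi3-TAP 4 were lower than total RNA (8.94% of all genes) and 2 higher (10.4%). With Whi3-dRRM-TAP 9 of the 38 were lower (9.22% of all genes) and 3 higher (13.6%), and 3 were lower with both (4.1%). The median ratio of the 38 in the Whi3-TAP precipitate was -0.37, against 0.00 over all genes and -0.93 over members. For Whi3-dRRM-TAP it was -0.39, against 0.06 and -0.85. On all 4 arrays 15 of the 38 lay below 0, against 20.2% of all genes, so low ratios were not limited to the members. The median net of the 38 was -0.06, with 12 positive and 17 negative in both experiments, and limma called none. The highest nets were those of ALD6, the cytosolic aldehyde dehydrogenase that makes acetate, at 1.20 ± 0.17, and RKI1, ribose-5-phosphate isomerase, at 1.19 ± 0.45. With ACS2, acetyl-CoA synthetase, at 1.06 ± 0.06, these 3 passed the upper SD limit. The lowest were FBP1, the gluconeogenic fructose bisphosphatase, at -1.62 ± 0.82 from 1 spot per array, and TPS1, a trehalose synthase subunit, at -1.15 ± 0.59, and FBP1 alone lay below the limit.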

How the data were processed

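The 33 genes and the lists were chosen with earlier results of these data known. Per the file headers, the deposited tables give the scanner intensity of each spot in both channels before background subtraction, a flag set by the authors when the scans were read, and the percent of saturated pixels in each channel. The authors also deposited 1 log2 ratio per probe and array (the series matrix), after background subtraction and loess by their methods. That table served as an alternative only. Set against the scanner values, it ran as immunoprecipitate over total RNA and was not centred, with array medians of 0.25 and 0.21 (Whi3-TAP), then 1.08 and 0.52 (Whi3-dRRM-TAP). Its choice of spots was not given in the sources used here.

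Flagged spots were left out, background was corrected by normexp with an offset of 50, log2 ratios were normalised by loess within arrays, and spots were averaged by gene, different products included. Tests used limma 3.58.1 in R 4.3.3 on the 4295 genes with values on all 4 arrays, 2-sided, with Benjamini-Hochberg adjustment over all genes at 0.05. The net log ratio was fitted with the experiment as a block, as the study's methods subtract the control within each experiment. Ratios of immunoprecipitate to total RNA were fitted per strain with a shared spread. Total RNA used the Cy5 channel after Aquantile scaling. Same-numbered arrays were taken from 1 experiment by the labels, and their deviations from group means correlated at 0.218 across genes. Above background means a mean above 2 background SDs. A spot with 50% or more saturated pixels counted as saturated. The net and per-strain fits were run on simulated data with independent noise and no experiment effect. The scaling of total RNA was not simulated, and no error rates are given. All members were named, with the 2 highest and 2 lowest of the neighbouring pathways. ACS2 and ACT1 were named after their values were seen. Files were read with version 1.17.8 of data.table, sample labels with jsonlite 2.0.0, and figures were drawn with matplotlib and pandas. No positions are given, since the array annotation states no build.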

Additional observations from a re-analysis of the deposited data

How the results depend on the processing

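No member changed the sign of a called ratio of immunoprecipitate to total RNA under any alternative. No net was called in the report's fit, and many nets changed sign, that of PDC1 under 7 alternatives and those of CDC19 and ADH1 under 5 each. Those of HXK1, HXK2, PFK2, TDH1, PDC5, PDC6 and ADH7 never did. The count of members below total RNA stayed between 11 and 20 with Whi3-TAP and between 12 and 20 with Whi3-dRRM-TAP when all arrays were used. Leaving out 1 array gave 0 to 21 members with Whi3-TAP and 1 to 21 with Whi3-dRRM-TAP. The lone array of a strain is then assumed to vary like the others. The count of genes with a called net log ratio, 0 with the experiment block, was 132 with no replicate block (71 higher, 61 lower), 527 with an intensity trend in the prior, 674 without background correction, 100 with median centring, 1051 with flagged spots kept, 250 with dim genes left out and 520 with at least 2 spots required. It was 462 from the series matrix (62 higher, 400 lower) and 846 (588 higher, 258 lower) once each of its arrays was centred, a choice made after seeing the data. It ran from 0 to 1530 with 1 array left out. ADH7 was called lower under 9 of 15 alternatives, with nets from -2.26 to -0.63. HXK2, with nets from -1.28 to -0.64, was called lower without background correction, with flagged spots kept and from the series matrix. PFK2, TDH1, PGK1 and GPM1 were called higher from the centred series matrix alone. Leaving out Whi3-dRRM-TAP array 2 gave TDH2, TDH3 and ENO2 nets of 1.41, 1.49 and 1.24. PDC6 was called lower with flagged spots kept alone. PFK26, without a value on all arrays in the report's fit, was also called lower with flagged spots kept (-0.83, limma adjusted p = 0.0199). The median net of members was -0.25 without background correction, 0.20 with median centring (all genes -0.21), -0.15 with flagged spots kept, -0.24 with saturated spots left out, 0.027 with dim genes left out (12 members, all genes -0.38) and 0.54 from the centred series matrix (all genes 0.09). It was -0.19 without the members saturated in total RNA, also chosen after seeing the data, and from -0.27 to -0.034 with 1 array left out. Genes above the upper SD limit, 215 of 4295 in the report's fit, came to 30 of 653 with dim genes left out. Genes called with Whi3-TAP, 831 in the report's fit, were 1476 without background correction, 1532 with flagged spots kept, 404 from the series matrix and 0 to 2025 with 1 array left out. With Whi3-dRRM-TAP they were 982, against 1677 with median centring, 1682 from the series matrix, 1492 once it was centred and 73 to 1825 with 1 array left out. Genes called in total RNA were 0 to 62 with 1 array left out. The causes of these changes were not tested. No slide or scan batch holding more than 1 array was given in the headers, so that alternative was not run. Signal over background limits the first Whi3-dRRM-TAP array, where the precipitate of 13 of the 27 members was above background.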
